A study of Mus musculus with 6 samples.

Results

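The prohormone processing enzymes of the mouse adrenal medulla were followed as 7 genes, Pcsk1, Pcsk2, Furin, Cpe, Cpd, Pam and Ctsl, through every probe set that the platform's annotation assigns to one of them alone. A probe set is a group of short probes that together read one transcript. Of 45101 probe sets on the array, 14 met this rule. They read 6 of the 7 genes, out of 18193 genes that the annotation names alone for a probe set, with 7 probe sets for Cpd, 2 each for Cpe and Ctsl and 1 each for Pcsk1, Furin and Pam, and Pcsk2 is not analysed here. The medulla was microdissected from 12 µm frozen sections of both adrenal glands of male C57/Bl6 mice, 8 weeks after surgery. TAC mice (n = 3) had undergone transverse aortic constriction, surgery that narrows the aortic arch and makes the heart pump against a higher pressure, and sham mice (n = 3) a control operation. Each array held the RNA of 1 animal, so the replicates are separate mice. No genotype or drug treatment is given for either group, and their age is not given in the sources used here.

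Peptide hormones are made as long inactive precursors that are cut and trimmed inside the secretory pathway. Prohormone convertases cut the precursor behind pairs of basic amino acids, carboxypeptidases remove the basic residues left at the new end, and an amidating enzyme can then convert a terminal glycine into the amide that many peptides need for activity. Chromaffin cells, which make up most of the endocrine tissue of the medulla, store such peptides with adrenaline and noradrenaline in their granules.

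The upstream sequences of Pcsk1 and Furin are shown because these genes, both convertases, had the largest differences between groups among the members and opposite signs. Pcsk1 acts in the granules of neuroendocrine cells, whereas Furin is a convertase of the Golgi apparatus found in most cell types. Each sequence is the 250 bases before an annotated transcription start, in the gene's own direction, from RefSeq on build GRCm38.p6. This table matched 6 of the 7 members by symbol and did not hold Cpe. Capitals mark matches on either strand to the cAMP response element (TGACGTCA), the GC box (GGGCGG) or the TATA box (TATAAA), 3 motifs that do not overlap in these windows.
Pcsk1, chr13:75089607-75089856, plus strand: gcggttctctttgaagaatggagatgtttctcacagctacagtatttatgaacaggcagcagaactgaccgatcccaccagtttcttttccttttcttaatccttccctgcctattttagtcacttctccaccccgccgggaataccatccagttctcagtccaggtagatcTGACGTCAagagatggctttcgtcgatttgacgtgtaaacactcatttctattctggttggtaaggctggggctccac
Furin, start 1, chr7:80405437-80405686, minus strand: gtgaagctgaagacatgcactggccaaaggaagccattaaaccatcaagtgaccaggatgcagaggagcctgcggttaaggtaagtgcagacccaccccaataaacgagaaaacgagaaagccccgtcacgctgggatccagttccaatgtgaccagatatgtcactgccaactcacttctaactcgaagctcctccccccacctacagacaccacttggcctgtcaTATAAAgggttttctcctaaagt
Furin, start 2, chr7:80402813-80403062, minus strand: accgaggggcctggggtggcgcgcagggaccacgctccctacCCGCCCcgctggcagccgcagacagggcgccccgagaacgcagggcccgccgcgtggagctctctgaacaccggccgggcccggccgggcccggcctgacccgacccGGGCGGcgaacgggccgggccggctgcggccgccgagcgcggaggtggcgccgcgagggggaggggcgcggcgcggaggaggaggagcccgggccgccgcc

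The Pcsk1 window held 1 match to the cAMP response element, which began at position -78 relative to the transcription start and is found in 1.55% of the 32851 upstream windows in the table. It held 8 CG dinucleotides, against a median of 6 over all windows. The window of Furin start 1 held 6 CG dinucleotides and a TATA box match at position -23, a motif present in 12.37% of windows. The window of Furin start 2 held 40 CG dinucleotides and GC box matches at positions -208 and -101, a motif present in 32.74% of windows. The windows of the other members that the table holds had no match to the cAMP response element. These matches describe the letters of the windows, and the array values do not show which start was used.

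Of the 14 probe sets, 6 passed a filter that asked for a log2 intensity of at least 4 on at least 3 of the 6 arrays, whatever their group, 1 for each of the 6 genes. The other 8 stayed under log2 4 on every array, between 1.57 and 3.73, so no direction is drawn from them. They were 6 of the 7 probe sets of Cpd, 1 of Cpe and 1 of Ctsl. The tested probe sets of these genes lay far above the filter on all 6 arrays, so single probe sets of one gene differed between a clear signal and none. Over the whole array, 18188 probe sets, or 40.4% of those that are not controls, passed the filter. Intensities of different probe sets depend on their probes, so no level of one gene is set against that of another here.

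**Figure D1:**
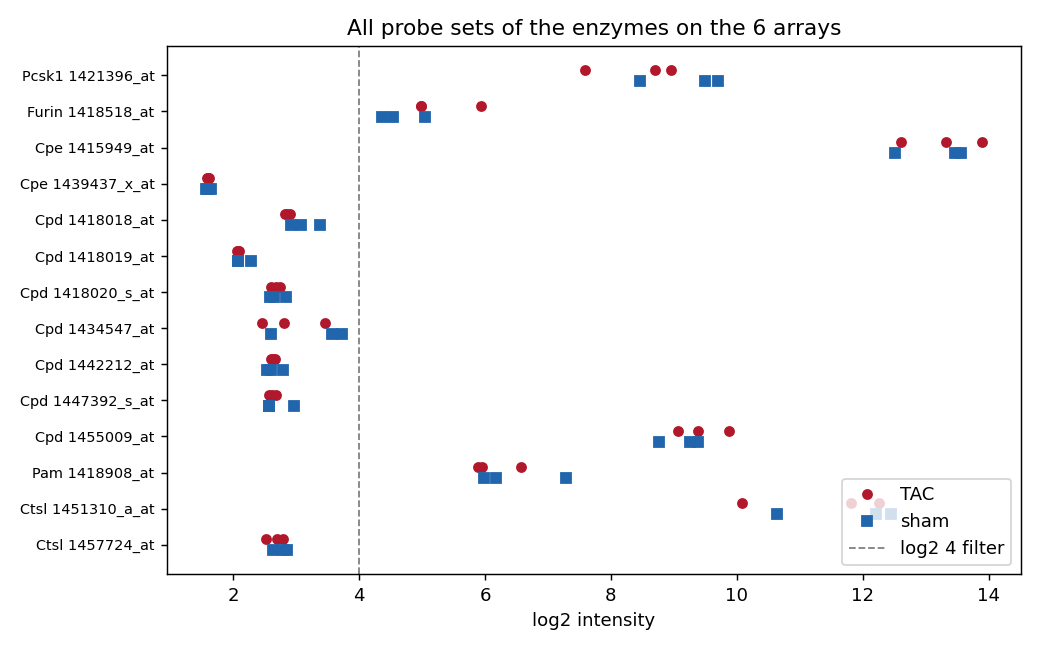
Log2 intensity of all 14 probe sets of the enzymes on the 6 arrays, with TAC as circles and sham as squares in each row and the log2 4 filter as a dashed line. The 8 probe sets left of the line stayed between 1.57 and 3.73, and 6 of them belong to Cpd.

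TAC and sham were compared to ask which transcripts of the medulla differ under cardiac pressure overload, and none of the 6 enzymes passed the test. Pcsk1, the granule convertase, and Furin, the general convertase, differed in opposite directions by -0.80 and 0.66 on the log2 scale, TAC minus sham. The carboxypeptidase genes Cpe and Cpd differed by 0.09 and 0.31. The amidating enzyme gene Pam differed by -0.34 and the cathepsin gene Ctsl by -0.39. The values of both groups overlapped for each of the 6 genes. In limma, 0 of the 6 had an adjusted p under 0.05, against 0% of all 18188 tested probe sets, and 0 had an unadjusted p under 0.05, against 6.94% of all. The second count became 1 for Pcsk1 after quantile normalization (limma unadjusted p = 0.0351), after cyclic loess (0.0285) and without sham 1 (0.0457), and the adjusted p stayed above the threshold in each. The groups did not overlap for 13.0% of all tested probe sets. Of the 6 genes 3 lay above sham and 3 below (2 and 4 after quantile normalization or cyclic loess, where Cpe turned), with a median difference of -0.13, and 54.7% of all tested probe sets lay above, with a median of 0.05. The smallest adjusted p over all probe sets was 0.384 (limma), and a median standard error of 0.39 for a difference sets what 6 arrays can resolve.

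**Figure D2:**
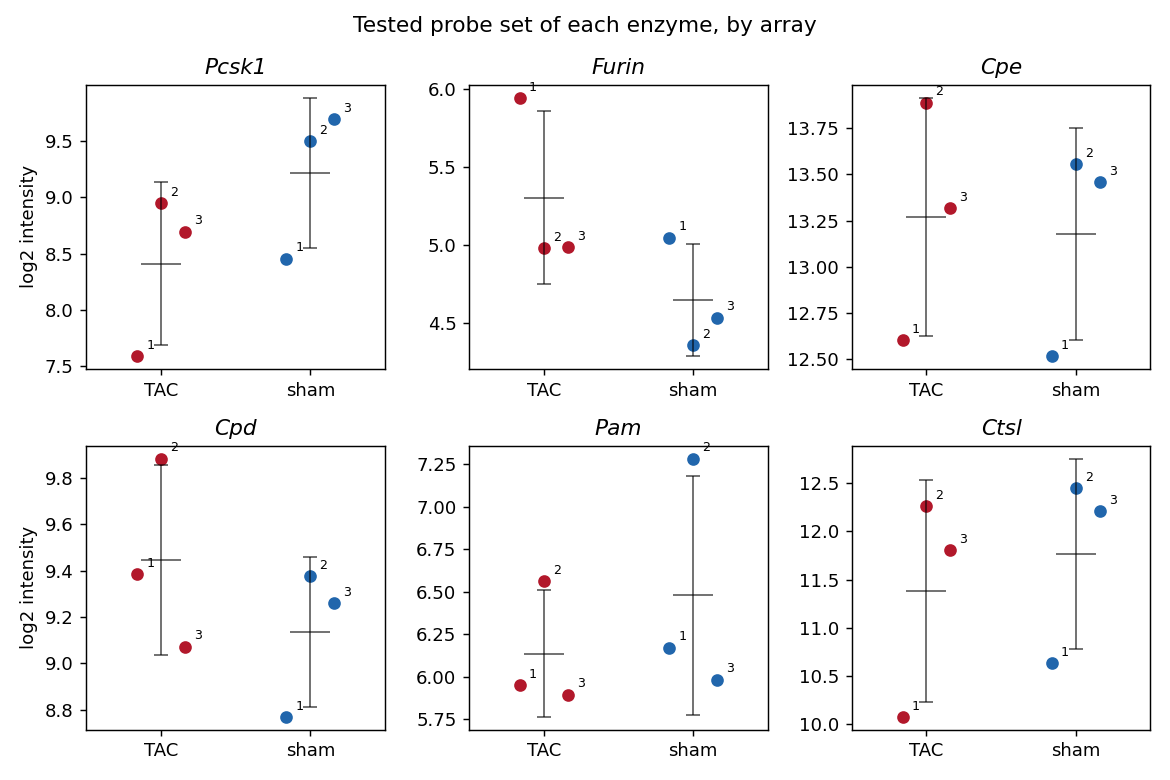
Log2 intensity of the tested probe set of each enzyme gene, with 1 point per array labelled by its replicate number, TAC left and sham right, and the mean with its SD as a bar (n = 3 per group). The groups overlap in all 6 panels, and the arrays numbered 1 lie at the low end of Pcsk1, Cpe and Ctsl in both groups and at the high end of Furin.

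The libraries differed in a 3′ to 5′ measure that moved with several of these genes. The array reads Gapdh with one control probe set at the 3′ end and another at the 5′ end. The log2 signal of the first minus that of the second grows as the measured copies get shorter. The RNA was amplified in 2 rounds primed at the 3′ end, so shorter RNA and shorter amplified copies cannot be told apart. This Gapdh difference was 4.71, 3.67 and 3.98 in TAC 1, 2 and 3, against 5.15, 3.08 and 2.88 in sham 1, 2 and 3. Arrays TAC 1, TAC 3 and sham 1 thus had the larger values, and differences were also computed within these 3 arrays and within the other 3. These parts hold 1 array of one group each, so they give values with no test. The defining markers of chromaffin cells were well measured, with a mean log2 intensity over 7 of 8 markers of 12.52 to 13.12 in TAC and 12.72 to 13.03 in sham. The mean of 5 of 8 markers of adrenal cortex ran from 5.45 to 9.04 in TAC and from 5.90 to 10.82 in sham, highest in sham 3 and TAC 1, while Cyp11b2 and Nr5a1 stayed under log2 4 on all arrays. Mc2r reached log2 4 only in sham 3, at 7.75, and so missed the filter. In whole dissected tissue, fewer cells of a type and less RNA per cell cannot be told apart.

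Pcsk1 encodes prohormone convertase 1, also called PC1/3, which makes the first cuts in many peptide precursors. Its log2 intensity was 7.59, 8.95 and 8.69 in TAC 1, 2 and 3, against 8.46, 9.50 and 9.69 in sham 1, 2 and 3. The lowest value of all was TAC 1 and the highest sham 3, and sham 1 lay among the TAC arrays. The mean was 8.41 ± 0.72 in TAC and 9.22 ± 0.67 in sham (SD, n = 3 each), a difference of -0.80 ± 0.50 (SE, limma adjusted p = 0.888) with a 95% interval from -2.02 to 0.41. That corresponds to a ratio of 0.573. The 3 arrays with the larger Gapdh difference held the 3 lowest Pcsk1 values, and the 3 with the smaller one the 3 highest. TAC minus sham was -0.31 among TAC 1, TAC 3 and sham 1, and -0.65 among TAC 2, sham 2 and sham 3. With the Gapdh difference as a covariate it was -0.53. Leaving out 1 array at a time gave -0.39 without TAC 1 and -1.18 without sham 1, and -0.15 remained without both TAC 1 and sham 3, the arrays with the most cortex signal. Neurons also use Pcsk1, and all 4 listed markers of ganglion neurons (Map2, Tubb3, Nefl and Nefm) lay below sham, with a median difference of -0.67. Their mean log2 intensity was 5.13, 6.60 and 5.73 in TAC 1, 2 and 3, against 6.23, 7.23 and 6.62 in sham 1, 2 and 3. None of the 4 passed the adjusted threshold in limma, and Map2, at -0.83 (limma adjusted p = 0.706), had no overlap between groups. Their part in the Pcsk1 values was not tested.

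Furin, the convertase that acts on growth factors, receptors and many other proteins on their way through the Golgi apparatus, had log2 intensities of 5.94, 4.98 and 4.99 in TAC 1, 2 and 3, against 5.05, 4.36 and 4.54 in sham 1, 2 and 3. TAC 1 stood well above the other arrays, and sham 1 lay just above TAC 2 and TAC 3. The mean was 5.30 ± 0.55 in TAC and 4.65 ± 0.36 in sham (SD, n = 3 each), a difference of 0.66 ± 0.37 (SE, limma adjusted p = 0.854) with a 95% interval from -0.24 to 1.55. Within each group, array 1, which had the largest Gapdh difference, was the highest, the opposite of Pcsk1. TAC minus sham was 0.42 among TAC 1, TAC 3 and sham 1, and 0.53 among TAC 2, sham 2 and sham 3. It was 0.50 with the Gapdh difference as a covariate, 0.34 without TAC 1 and 0.28 without both TAC 1 and sham 3.

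**Figure D3:**
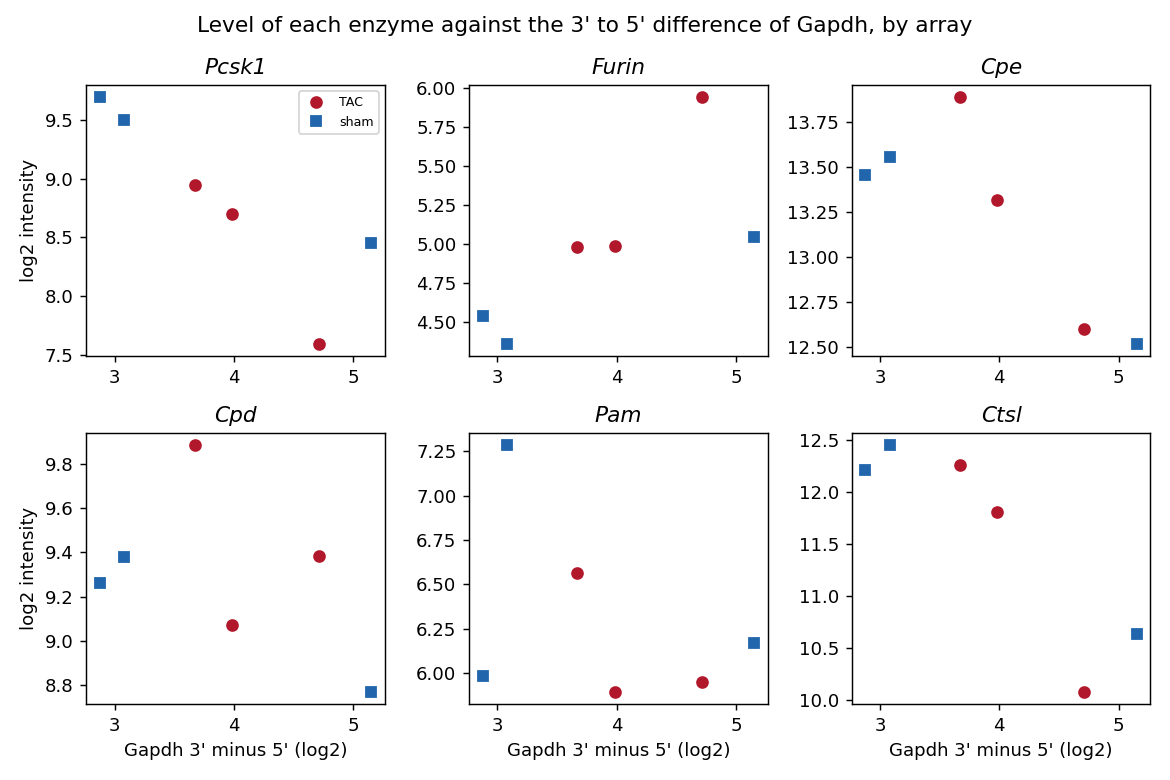
Log2 intensity of each enzyme gene on the y axis against the Gapdh difference (3′ minus 5′ signal, log2) on the x axis, with 1 point per array, TAC as circles and sham as squares. Pcsk1, Cpe and Ctsl are low in the 2 arrays at the right (4.71 in TAC 1 and 5.15 in sham 1), where Furin is high.

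Cpe encodes carboxypeptidase E, the main enzyme that trims basic residues from peptides in the granules. It had log2 intensities of 12.60, 13.89 and 13.32 in TAC 1, 2 and 3, against 12.52, 13.56 and 13.46 in sham 1, 2 and 3. The groups lay side by side, with array 1 the lowest of each. The mean was 13.27 ± 0.65 in TAC and 13.18 ± 0.57 in sham (SD, n = 3 each), a difference of 0.09 ± 0.45 (SE, limma adjusted p = 0.998) with a 95% interval from -1.002 to 1.19. Its sign depended on the scaling and on single arrays, with -0.04 after quantile normalization, -0.01 after cyclic loess, -0.24 without sham 1 and 0.43 without TAC 1. TAC minus sham was 0.44 among TAC 1, TAC 3 and sham 1, and 0.38 among TAC 2, sham 2 and sham 3. With the Gapdh difference as a covariate it was 0.33.

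Cpd, carboxypeptidase D, does a similar trimming in the Golgi network and is found in many tissues. Its single tested probe set had log2 intensities of 9.38, 9.88 and 9.07 in TAC 1, 2 and 3, against 8.77, 9.38 and 9.26 in sham 1, 2 and 3. TAC 2 was the highest and sham 1 the lowest, with the other 4 arrays between. The mean was 9.45 ± 0.41 in TAC and 9.14 ± 0.32 in sham (SD, n = 3 each), a difference of 0.31 ± 0.31 (SE, limma adjusted p = 0.972) with a 95% interval from -0.46 to 1.07. This interval was the narrowest of the 6 genes. The difference was 0.09 without TAC 2 and 0.50 without TAC 3. It was 0.46 among TAC 1, TAC 3 and sham 1, 0.56 among TAC 2, sham 2 and sham 3, and 0.42 with the Gapdh difference as a covariate.

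Pam encodes peptidylglycine alpha-amidating monooxygenase, the copper- and ascorbate-dependent enzyme that amidates peptides such as neuropeptide Y and adrenomedullin. It had log2 intensities of 5.95, 6.56 and 5.89 in TAC 1, 2 and 3, against 6.17, 7.28 and 5.98 in sham 1, 2 and 3. Sham 2 stood above the rest, which lay between 5.89 and 6.56. The mean was 6.14 ± 0.37 in TAC and 6.48 ± 0.70 in sham (SD, n = 3 each), a difference of -0.34 ± 0.42 (SE, limma adjusted p = 0.980) with a 95% interval from -1.37 to 0.68. Without sham 2 it was 0.06. Among TAC 1, TAC 3 and sham 1 it was -0.25, and among TAC 2, sham 2 and sham 3 it was -0.07.

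Ctsl encodes cathepsin L, a lysosomal protease that is also found in chromaffin granules, where it can cut proenkephalin. It had log2 intensities of 10.08, 12.26 and 11.81 in TAC 1, 2 and 3, against 10.63, 12.45 and 12.21 in sham 1, 2 and 3. Array 1 was far below the other arrays of its group in both groups, and the spread was the widest among the 6 genes. The mean was 11.38 ± 1.15 in TAC and 11.77 ± 0.99 in sham (SD, n = 3 each), a difference of -0.39 ± 0.73 (SE, limma adjusted p = 0.986) with a 95% interval from -2.17 to 1.40. It was 0.27 without TAC 1, -0.95 without sham 1 and 0.02 with the Gapdh difference as a covariate. Among TAC 1, TAC 3 and sham 1 it was 0.31, and among TAC 2, sham 2 and sham 3 it was -0.07. Macrophages and fibroblasts also make much cathepsin L. The mean of 5 of 6 macrophage markers was 7.01, 8.56 and 7.91 in TAC 1, 2 and 3, against 6.73, 8.23 and 8.10 in sham 1, 2 and 3. Cd68 reached log2 4 only in sham 2 and sham 3 and missed the filter. The mean of the 6 fibroblast markers was 5.92, 7.33 and 6.83 in TAC 1, 2 and 3, against 6.87, 8.43 and 8.47 in sham 1, 2 and 3. Array 1 was the lowest of each group for both means, and also for the endothelial, ganglion neuron and sustentacular and Schwann markers. The same held for the median log2 intensity of all tested probe sets, at 6.50 in TAC 1 and 6.31 in sham 1. It did not hold in both groups for the chromaffin and cortex markers. The low values of array 1 are thus not particular to Ctsl or to these cell types. The part of macrophages and fibroblasts in the Ctsl values was not tested.

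Of 3 genes for inhibitors and chaperones of these enzymes, 0 passed the threshold, with 1 above sham and 2 below. Pcsk1n encodes proSAAS, a granule protein that inhibits prohormone convertase 1. Its log2 intensity was 10.56, 11.25 and 11.03 in TAC 1, 2 and 3, against 10.02, 10.43 and 10.17 in sham 1, 2 and 3, so each TAC array lay above each sham array. The difference was 0.74 ± 0.28 (SE, limma adjusted p = 0.682), and 0.77 among TAC 1, TAC 3 and sham 1 and 0.95 among TAC 2, sham 2 and sham 3. Scg5 encodes a granule chaperone of prohormone convertase 2, the product of Pcsk2, which is not analysed here. Scg5 differed by -0.69 (limma adjusted p = 0.939), and Cst3, which encodes the cathepsin inhibitor cystatin C, by -0.71 (limma adjusted p = 0.934). Both had overlapping groups, and among TAC 1, TAC 3 and sham 1 they differed by 0.01 and -0.03. Among TAC 2, sham 2 and sham 3 they differed by -0.60 and -0.71.

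The ratio of Pcsk1 to its inhibitor gene was also followed within each array, where a scaling between arrays that adds the same log2 value to both genes cancels. The pair was chosen with earlier values of Pcsk1n known, and it joins a gene below sham with a gene above sham. A lower ratio in TAC follows from those 2 differences, so it adds no separate support. The log2 intensity of Pcsk1 minus that of Pcsk1n was -2.97, -2.30 and -2.33 in TAC 1, 2 and 3, against -1.56, -0.94 and -0.47 in sham 1, 2 and 3. Only the difference between groups has a meaning here, since each level depends on its own probes. Each TAC array lay below each sham array. The mean was -2.53 ± 0.38 in TAC and -0.99 ± 0.55 in sham (SD, n = 3 each), a difference of -1.54 and a 2.91-fold lower ratio in TAC (exact 2-sided permutation p = 0.1). This is the smallest p that 3 against 3 arrays can give, so the test could not pass 0.05. Array 1 was the lowest of each group here too, and the difference was -1.09 among TAC 1, TAC 3 and sham 1 and -1.59 among TAC 2, sham 2 and sham 3. It ran from -1.83 to -1.28 when single arrays were left out, with an exact 2-sided permutation p of 0.2 without TAC 1 and 0.1 without each other array.

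**Figure D4:**
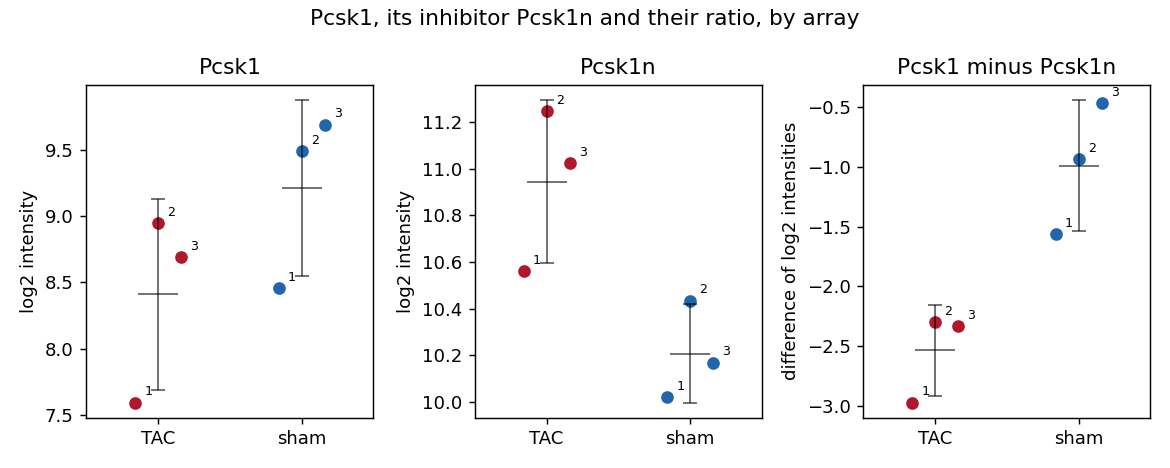
Log2 intensity of Pcsk1 and Pcsk1n and their difference within each array, with 1 point per array labelled by its replicate number, TAC left and sham right, and the mean with its SD as a bar (n = 3 per group). The groups overlap for Pcsk1 and not for Pcsk1n, and the ratio lies at or below -2.30 in TAC and at or above -1.56 in sham.

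The other convertases were mostly weak on the array. Of 6 such genes, 3 were tested. Pcsk7, a convertase of the Golgi network, had log2 intensities of 4.23, 4.40 and 4.71 in TAC 1, 2 and 3, against 3.81, 3.23 and 3.37 in sham 1, 2 and 3. The groups did not overlap, but all sham values were under log2 4, so the size of the difference of 0.98 (limma adjusted p = 0.520) is uncertain, and raising all lower values to 4 gave 0.45. Pcsk7 passed the filter only through the TAC arrays, where it was high. Its p-value and its lack of overlap therefore give no support for a difference. Mbtps1, a protease that activates membrane-bound transcription factors, differed by 0.55 (limma adjusted p = 0.946). It differed by 1.02 among TAC 1, TAC 3 and sham 1, by 0.80 among TAC 2, sham 2 and sham 3, and by 0.81 with the Gapdh difference as a covariate. Pcsk5 had 1 tested probe set, which varied from 4.10 to 8.66 in TAC and from 4.61 to 7.96 in sham, highest in TAC 1 and sham 3, the arrays with the most cortex signal. Its difference was -0.65 (limma adjusted p = 0.990). Pcsk4 and Pcsk6 stayed below the filter on all arrays.

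Among 9 genes of other peptidases and of end modification, 5 were tested and 0 passed, with 2 above sham and 3 below. The lysosomal proteases Ctsb, Ctsd and Ctsh differed by 0.29, -0.20 and 0.07, Rnpep, an aminopeptidase that removes basic residues, by -0.08, and Qpct, which forms the pyroglutamate end of some peptides, by -0.68. Their adjusted p-values in limma ran from 0.982 to 0.998. Other probe sets of these genes disagreed in part, with Ctsh also at -0.76 and Ctsb also at 0.18, 0.41 and -0.45.

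The supply of copper and ascorbate that the amidating enzyme needs was read by 4 genes, of which 0 passed. Atp7a, a copper pump of the secretory pathway, had log2 intensities of 10.63, 11.00 and 10.85 in TAC 1, 2 and 3, against 10.53, 9.78 and 10.07 in sham 1, 2 and 3. Each TAC array lay above each sham array, with TAC 1 and sham 1 close together. The difference was 0.70 ± 0.28 (SE, limma adjusted p = 0.706), and its other tested probe set read -0.31. Atp7a differed by 0.21 among TAC 1, TAC 3 and sham 1 and by 1.08 among TAC 2, sham 2 and sham 3. Slc31a1, a copper importer, differed by 0.06 with another probe set at -0.64, Slc23a2, an ascorbate transporter, by 0.07, and Cyb561, the cytochrome that renews ascorbate inside the granule, by -0.05 (limma adjusted p = 0.998 for each of these values but that of the second Slc31a1 probe set, at 0.980).

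The precursors that these enzymes process showed no common direction. Of 15 listed genes 11 were tested, 5 above sham and 6 below, with a median difference of -0.19 and 0 past the threshold. The 3 with the smallest p were Adm, Pomc and Penk. Adm, which encodes the amidated peptide adrenomedullin, differed by 0.68 (limma adjusted p = 0.658) without overlap between groups, and its other probe set read -0.85. Pomc, the precursor of corticotropin and other peptides, differed by 0.96 (limma adjusted p = 0.734), and Penk, the precursor of enkephalins and a major peptide precursor of chromaffin cells, by -0.86 (limma adjusted p = 0.870). Over the whole pathway list, 26 of 37 genes were tested, 13 lay above sham and 13 below, and 0 had an adjusted p under 0.05 in limma, against 0% of all tested probe sets. At an unadjusted p under 0.05 there were 4 of the 26, Pcsk7, Pcsk1n, Atp7a and Adm. Counted by probe set these were 4 of 33 tested, against 6.94% of all tested probe sets. The same 4 were those without overlap between groups, against 13.0% of all. Pcsk7 is in both counts but passed the filter only through the TAC arrays, where it was high, so it adds no support to either.

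**Figure D5:**
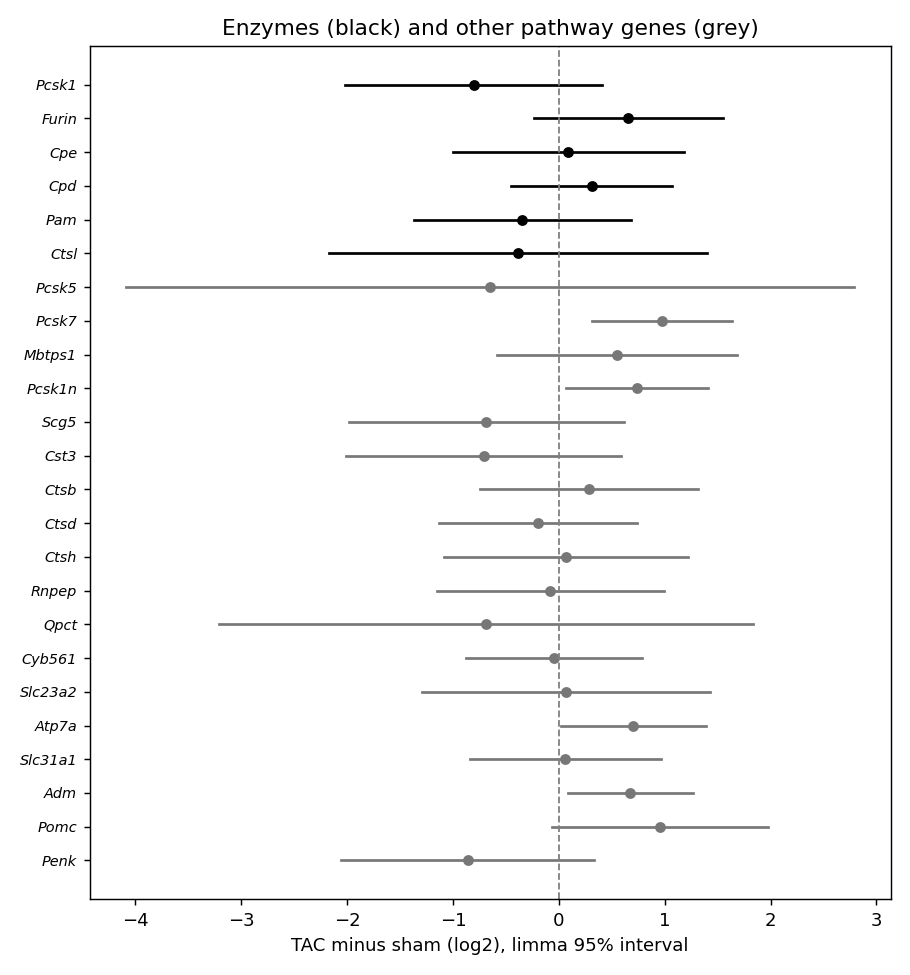
Difference of TAC minus sham on the log2 scale on the x axis, with its 95% limma interval as a line, for the 6 enzyme genes (black) and the 18 other named genes of the pathway (grey). The intervals of all 6 enzymes span 0, and those of Pcsk7, Pcsk1n, Atp7a and Adm lie above it before adjustment for the number of tests. Pcsk7 passed the filter only through the TAC arrays, where it was high.

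Patterns over the 6 arrays most like those of Pcsk1 and Cpe were found among 15645 tested probe sets of other genes. For Pcsk1 they were those of Las1l, Mapk8ip2 and Atg3, with Pearson correlations of 0.998, 0.997 and 0.996 over 6 arrays. For Cpe they were those of Cox5a, Kifbp and Fkbp1b, at 0.9996, 0.9987 and 0.9983. A correlation above 0.95 was reached by 350 probe sets for Pcsk1 and by 1326 for Cpe. All share the same 6 arrays, which differ in the Gapdh measure, so these are descriptions of the arrays.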

How the data were processed

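RNA from the medullae of 1 mouse went through 2 rounds of amplification, primed at the 3′ end, and was hybridised to 1 Affymetrix mouse array, per the labels' protocols. The deposited values are background-corrected intensities on a linear scale, 1 for each probe set of an array. The submitters' processing notes name GCRMA, without a version or settings. Each value was transformed to log2 and otherwise used as deposited. The median log2 intensity of the tested probe sets ran from 6.50 to 7.01 in TAC and from 6.31 to 6.91 in sham, so the deposited arrays do not share one distribution.

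Of 45101 probe sets, 64 array controls were left out. The 18188 probe sets that reached log2 4 on 3 or more arrays were compared between TAC and sham by a 2-sided limma test (lmFit, then eBayes, without covariates, limma 3.58.1, R 4.3.3). Benjamini-Hochberg adjustment ran over all 18188, with a threshold of 0.05. Where several probe sets of a gene were tested, the brightest on average over all arrays stands for the gene. The procedure was tested on simulated data. Some listed genes are counted in their list but not reported here. The members, the lists of other genes and the tests were chosen with earlier results of these data known. Every probe set of the members is reported, as are all tested genes of the other processing steps and the 3 precursor genes with the smallest p. No probe set carries Pcsk2 as its single symbol in the platform table used here, so Pcsk2 is not analysed here, and of 3 ratios within an array that had been planned, the 2 that need it were not run. The remaining ratio was tested with an exact permutation test over the 6 arrays.

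The arrays share replicate numbers between groups, and the labels do not say that a number marks a pair. The alternatives tried were other scalings, other filters, a floor at log2 4, array weights, the replicate block, the Gapdh difference as a covariate and leaving out single arrays. The number of arrays limits the precision.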

Additional observations from a re-analysis of the deposited data

How the results depend on the processing

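No member, pathway or other tested probe set passed the adjusted threshold under any alternative except array weights. With those, 6698 probe sets in all, 2 of members (Pcsk1 at -0.93, limma adjusted p = 0.0181, and Furin at 0.58, limma adjusted p = 0.0463) and 15 of the pathway list passed, and Cpe (-0.18), Cpd (-0.17), Ctsh (-0.31), Slc23a2 (-0.22) and Slc31a1 (-0.021) changed sign. The weights ran from 0.143 for sham 1 to 6.11 for TAC 3, which lets 1 array decide most of the TAC mean. The number of probe sets at an unadjusted p under 0.05 was 1263 as reported, 2110 without a filter, 3843 with the Gapdh difference as a covariate, 640 without sham 3 and TAC 1 together, and 641 (without sham 2) to 2429 (without sham 1) when single arrays were left out. Of those probe sets 67.0% lay above sham as reported, 56.4% after quantile normalization and 43.4% after cyclic loess. None of the 4 pathway genes below that level held it in limma under every alternative. Atp7a lost it after centring each array on its median, quantile normalization or cyclic loess, and with the replicate block (limma unadjusted p = 0.0552). Adm lost it after centring or cyclic loess. Both lost it when averaged over all tested probe sets of the gene (limma unadjusted p = 0.584 for Atp7a and 0.825 for Adm). Pcsk7 lost it with the floor at log2 4 (limma unadjusted p = 0.0903). When single arrays were left out, the limma unadjusted p rose to 0.103 for Pcsk1n (without TAC 2), 0.107 for Adm (without TAC 3) and 0.153 for Atp7a (without sham 2). Without sham 3 and TAC 1 together, none of the 4 reached it. The sign of Pcsk1, Furin, Pcsk7, Mbtps1, Pcsk1n, Scg5, Cst3, Pomc and Penk was kept under every alternative run for them, except for Scg5 at 0.011 among TAC 1, TAC 3 and sham 1. The values among those 3 arrays and among the other 3, and those without sham 3 and TAC 1 together, were chosen after seeing the data.

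Other signs turned as well, those of small differences and also of Qpct (-0.68 as reported), Adm (0.68) and Pcsk5 (-0.65), and the cause was not tested. After quantile normalization Cpe was at -0.043 and Slc31a1 at -0.0042. After cyclic loess Cpe was at -0.013, Ctsh at -0.039, Slc23a2 at -0.020 and Slc31a1 at -0.051. With the Gapdh difference as a covariate Ctsl was at 0.024, Rnpep at 0.12 and Cyb561 at 0.070. Without sham 3 and TAC 1 together Ctsl was at 0.49, Ctsd at 0.15, Rnpep at 0.23, Qpct at 0.44 (0.72 among TAC 1, TAC 3 and sham 1) and Cyb561 at 0.19, and the difference of the Pcsk1 to Pcsk1n ratio was -1.07. Averaged over all tested probe sets of the gene, Ctsh was at -0.34, Slc31a1 at -0.29 and Adm at -0.088. When single arrays were left out, Cpe ran from -0.24 to 0.43, Pam from -0.59 to 0.059, Ctsl from -0.95 to 0.27, Pcsk5 from -2.06 to 0.22, Ctsb from -0.0025 to 0.62 and Ctsd from -0.48 to 0.082. Likewise Ctsh ran from -0.41 to 0.43, Rnpep from -0.43 to 0.18, Cyb561 from -0.27 to 0.23, Slc23a2 from -0.36 to 0.54 and Slc31a1 from -0.20 to 0.33.

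With the replicate block, 0 probe sets passed the adjusted threshold in limma and 3005 had an unadjusted p under 0.05, 2 of them of members (Pcsk1 and Furin). The deviations of same-numbered TAC and sham arrays from their group means correlated at 0.76, 0.78 and -0.22 for numbers 1, 2 and 3. Differently numbered arrays also correlated, with 0.71 for TAC 2 and sham 3. Deviations from a mean of 3 arrays depend on each other, so these values cannot decide whether a number marks a pair. Furin, Pcsk7, Qpct and Pomc were not tested under the filter at a mean of log2 6. The number of arrays limits what could be resolved. So does a signal close to the filter for Pcsk7, for Furin (log2 4.36 to 5.94 over the 6 arrays) and for Pomc (3.96 to 5.83).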
